A study of Homo sapiens with 6 samples.

Results

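Integrins and laminins were examined in RKO cells as a set of genes: every gene symbol of an integrin α chain, an integrin β chain or a laminin chain in the deposited tables was taken by name. This gave 38 genes of 28278 rows, 26 integrin chains (18 α and 8 β) and 12 laminin chains (5 α, 4 β and 3 γ). Integrins are cell-surface receptors made of 1 α and 1 β chain, and the pairing decides what they bind: collagen, fibronectin and other ligands with an RGD motif, leukocyte counter-receptors, or laminin. Laminins are large trimers of 1 α, 1 β and 1 γ chain that build the basement membrane under epithelia, and are named by the numbers of their chains, so that laminin-511 holds α5, β1 and γ1. In epithelial cells α3β1, α6β1 and α6β4 are the main laminin receptors, and α6β4 anchors cells to the basement membrane in hemidesmosomes, which link it to keratin filaments through plectin.

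The study measured RNA in 6 libraries of RKO, an established cell line of human colon carcinoma with poor differentiation. The 3 shTRIM21 libraries came from cells with a stably expressed short hairpin RNA against TRIM21, a gene for a ubiquitin ligase, and the 3 shControl libraries from cells with a scrambled hairpin. In both groups the hairpin was brought in by lentivirus and cells were selected with puromycin at 5 µg/ml, added 36 h after infection, for 2 to 3 weeks, so both carry a hairpin vector and resistance. The labels give no clone, no number of hairpins and no separate infections, and p-values therefore measure the spread between these libraries. TRIM21 itself was at 7.97, 6.92 and 7.84 CPM (counts scaled to the library's TMM-adjusted size, so that libraries can be compared) in shTRIM21 and at 12.2, 11.45 and 9.46 CPM in shControl, and fell by 31.3% (log2 fold change -0.54, SE 0.116, edgeR adjusted p = 0.00424). With library sizes alone it was -0.34 and not called (edgeR adjusted p = 0.197).

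Libraries held between 33499827 and 44466137 counts. Ribosomal RNA rows took between 16.99% and 23.5% of these in shTRIM21 and between 14.7% and 36.9% in shControl, highest in shControl replicates 1 and 3. Integrin and laminin rows together held 56484 to 62663 counts in the shTRIM21 libraries and 70203 to 72454 in the shControl libraries. All 7 epithelial markers were tested, EPCAM, KRT8, KRT18 and KRT19 among them: the list summed to 4635 to 4877 CPM in shTRIM21 and 5967 to 6634 CPM in shControl, with KRT8, KRT18 and KRT19 lower and CDH1 higher. The part of the keratin fall in the results below was not tested. With ribosomal RNA rows removed, 10 integrin and laminin genes were lower and 4 higher at an edgeR adjusted p under 0.05. Their median log2 fold change was then -0.117, and ITGA6 was at -0.67 and ITGB4 at -0.54. Over all genes 1450 were higher and 1794 lower in that fit. Any other part of the ribosomal RNA share in these results was not tested. Markers of other cells were at 0 or low, apart from CD68 at 5.78 to 6.61 CPM in shTRIM21 and 7.06 to 8.05 CPM in shControl and COL1A1 at 10.1 to 10.5 CPM in shTRIM21 and 6.04 to 9.08 CPM in shControl. The 6 leukocyte markers summed to at most 7.14 CPM in shTRIM21 and 8.395 CPM in shControl, nearly all of it CD68, with CD3E at 0 in every library. The 6 fibroblast markers summed to at most 10.8 CPM in shTRIM21 and 9.19 CPM in shControl, nearly all COL1A1, with DCN, LUM and THY1 at 0. The 5 endothelial markers summed to at most 0.773 CPM in shTRIM21 and 0.773 CPM in shControl, with CDH5 at 0, and the 4 platelet markers 2.11 CPM in shTRIM21 and 1.70 CPM in shControl, with GP9 at 0.

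Most of the integrin genes that RKO cells express at appreciable levels were lower in shTRIM21, while the laminin genes moved both ways. Of the 38 genes, 27 had enough counts to be tested. Of these, 10 were lower and 4 higher in shTRIM21 at an edgeR adjusted p under 0.05, that is 14 called, where 20.8% of all 15131 tested genes were called (11% lower and 9.77% higher). ITGAX, 1 of the 4 higher genes, passed the filter on low counts only through the shTRIM21 libraries; without it 13 of 26 were called, 10 lower and 3 higher. The lower genes included the integrin α chains ITGA3, ITGA5, ITGA6 and ITGAV, the β chains ITGB1, ITGB4, ITGB5 and ITGB8, and the laminin γ chain LAMC1. The higher genes were ITGA7, ITGAX, LAMB1 and LAMB2, and their count moved with single libraries: it was 2 without shTRIM21 replicate 2, 2 without shTRIM21 replicate 3, 2 without shControl replicate 2 and 1 without shControl replicate 3. Leaving out both shControl replicates 1 and 3 also left 1. Because more counts make a call easier, the same count was taken above a mean of 10 CPM: 11 of 15 integrin and laminin genes were called there (9 lower, 2 higher), against 25.4% of 9524 genes (923 higher, 1495 lower).

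Changes were modest in size. Among the 13 called genes other than ITGAX the size ran from 1.17-fold to 1.585-fold (ITGA6), with a median of 1.25-fold, against a median of 1.275-fold for all called genes. The median log2 fold change was -0.23 over the 17 tested integrins and 0.10 over the 10 tested laminins, beside 0.01 over all tested genes. Over all 27 it was -0.11, with values of 0.03 without shTRIM21 replicate 2, -0.01 without shControl replicates 1 and 3, and 0.11 with library sizes alone. The 2 groups did not overlap for 15 of the 27, with 10 lower and 5 higher, where 37.7% of all tested genes did not overlap (19.0% lower, 18.7% higher). The 5 higher include ITGAX, which was tested only because it was high in shTRIM21, so its separation adds no support.

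**Figure D1:**
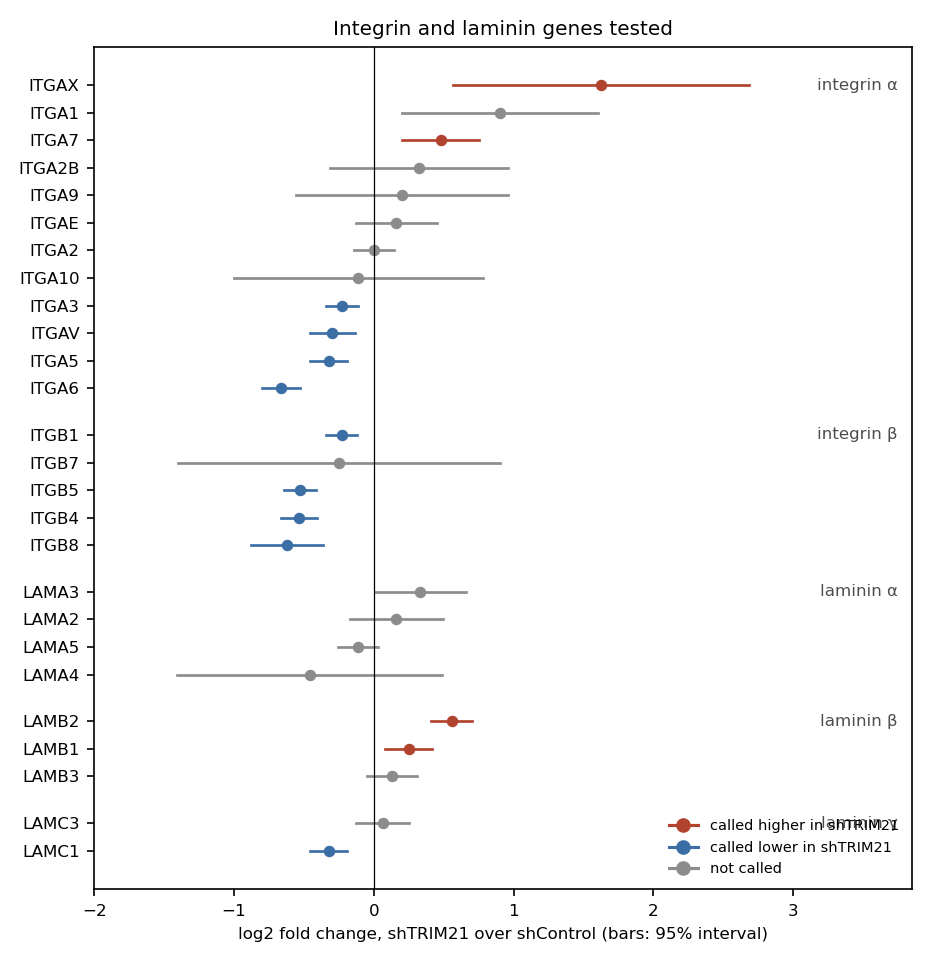
Log2 fold change (shTRIM21 over shControl, horizontal axis) of 26 of the 27 tested integrin and laminin genes by chain class, with 95% intervals; colours mark genes called higher, lower or not called. Within the β integrins all 4 called genes lie below 0, and within the laminins the β chains LAMB1 and LAMB2 lie above 0 and the γ chain LAMC1 below.

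The calls of most lower genes were lost when libraries were scaled by their sizes alone. With RLE size factors 10 integrin and laminin genes were called lower, beside 1696 over the whole table. With upper-quartile factors 10 were called lower as well, beside 1161 over the whole table. With library sizes alone, the median of all tested genes moved to 0.22 on the log2 scale; the 10 lower genes then ran from -0.46 (ITGA6, the only one of them still called) to -0.01 (ITGA3), all below 0, and from -0.68 to -0.23 relative to that median. The 4 higher genes were also called there. Use of strand in counting is not given in the sources used here, so reads of overlapping genes on opposite strands cannot be told apart, and overlaps with named genes are given where they touch a result. Exons of ITGB1 overlap the opposite-strand gene ITGB1-DT, and those of ITGA5, ITGAV and ITGB8 each overlap 1 gene on the opposite strand (AC079313.1, AC017101.1 and AC004130.1 in that order). In such bulk samples fewer cells of a type and less RNA per cell cannot be told apart either.

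DNA before the annotated start is shown for 4 of the called genes: ITGB1 and ITGA5, the lower genes with a TEAD motif in this window, and LAMC1 and LAMB2, a lower and a higher laminin chain. TEAD factors recruit the co-activators YAP and TAZ, whose target genes include many adhesion genes. Sequences are the 250 bases before the most upstream start in RefSeq (GRCh38.p14), 5′ to 3′ on the gene's strand, with capitals at matches to GGAATG (TEAD), TGANTCA (AP-1) or GGGCGG (SP1) on either strand.
ITGB1 (lower; chr10:32958231-32958480, minus strand): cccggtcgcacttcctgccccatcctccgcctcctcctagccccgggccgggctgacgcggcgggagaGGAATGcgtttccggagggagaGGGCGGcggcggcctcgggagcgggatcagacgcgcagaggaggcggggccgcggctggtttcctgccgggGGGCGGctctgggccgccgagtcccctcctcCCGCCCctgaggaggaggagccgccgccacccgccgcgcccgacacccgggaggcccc
ITGA5 (lower; chr12:54419267-54419516, minus strand): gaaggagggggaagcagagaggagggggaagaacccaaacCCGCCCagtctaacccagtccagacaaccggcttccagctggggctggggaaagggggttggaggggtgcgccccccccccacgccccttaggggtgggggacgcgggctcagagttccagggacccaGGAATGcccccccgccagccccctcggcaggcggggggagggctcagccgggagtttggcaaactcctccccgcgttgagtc
LAMC1 (lower; chr1:183023170-183023419, plus strand): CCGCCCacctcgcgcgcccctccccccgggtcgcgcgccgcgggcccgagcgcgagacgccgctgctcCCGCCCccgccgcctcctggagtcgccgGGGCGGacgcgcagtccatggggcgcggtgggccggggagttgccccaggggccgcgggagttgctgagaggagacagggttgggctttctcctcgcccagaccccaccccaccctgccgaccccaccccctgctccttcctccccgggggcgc
LAMB2 (higher; chr3:49133051-49133300, minus strand): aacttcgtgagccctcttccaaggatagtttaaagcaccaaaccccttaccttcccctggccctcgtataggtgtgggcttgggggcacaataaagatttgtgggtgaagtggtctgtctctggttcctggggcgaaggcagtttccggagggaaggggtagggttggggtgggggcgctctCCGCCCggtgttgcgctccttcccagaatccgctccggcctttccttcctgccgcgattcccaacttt

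In these windows ITGB1 and ITGA5 each hold the TEAD letters once, and no printed window holds the AP-1 letters. RefSeq promoters were matched for 26 of the 38 genes, in 33 windows. The TEAD letters were in 4 of the 33 windows, beside 11.9% of the 35116 windows of all genes, the AP-1 letters in 2, beside 6.57%, and the SP1 letters in 17, beside 42.6%. By gene, TEAD letters were found for 2 of 7 lower, 0 of 2 higher and 2 of 11 uncalled genes, the last being ITGA10 and LAMA2. SP1 letters were found for 6 of 7 lower, 2 of 2 higher and 4 of 11 uncalled genes. A gene counts when any of its windows holds the letters, and ITGB5, ITGA6, ITGAV and ITGB1 among the lower genes have several windows. No share by gene was computed over all genes, so these counts by gene have no background. A match is a description of letters and not a bound site.

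Chains of the laminin receptor α6β4 fell together. ITGA6 (chr2:172427336-172506459, GRCh38.p14), the α6 chain shared by α6β1 and α6β4, was at 90.6, 96.3 and 104 CPM in shTRIM21 and at 144, 163 and 155 CPM in shControl. Each shTRIM21 library was below each shControl library, and the level fell by 36.9% (log2 fold change -0.66, SE 0.0634, 95% interval -0.80 to -0.53, edgeR adjusted p = 4.18e-06). ITGB4 (chr17:75721459-75757818), the β4 chain with the long cytoplasmic tail that binds plectin, was at 307, 332.2 and 345 CPM in shTRIM21 and at 465.5, 453 and 507 CPM in shControl. It too did not overlap between groups and fell by 30.9% (log2 fold change -0.53, SE 0.0601, 95% interval -0.66 to -0.41, edgeR adjusted p = 2.04e-05). Exons of ITGA6 overlap those of the antisense gene ITGA6-AS1, whereas no other annotated gene overlaps the exons of ITGB4. ITGA6 kept its call in all 16 alternatives and ITGB4 in 15, losing it with library sizes alone (log2 fold change -0.31, edgeR adjusted p = 0.208). Over the alternatives the adjusted p of ITGB4 ran from 3.39e-18, given by DESeq2, to that value.

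Genes of the other main laminin receptor, α3β1, were lower as well, with smaller log2 fold changes. ITGA3, the α3 chain, which binds laminins with an α3 or α5 chain, was at 238, 245 and 258 CPM in shTRIM21 and at 281, 285 and 301 CPM in shControl. The groups did not overlap, and ITGA3 fell by 14.6% (log2 fold change -0.23, SE 0.0528, edgeR adjusted p = 0.00675). ITGB1, the β1 chain that pairs with most α chains in these cells, was at 333, 331.8 and 349 CPM in shTRIM21 and at 377, 404 and 406 CPM in shControl, again without overlap. Its log2 fold change was also -0.23 (SE 0.0523, edgeR adjusted p = 0.00637). The call of ITGB1 was lost without shTRIM21 replicate 2 (edgeR adjusted p = 0.0503) and that of ITGA3 without shControl replicates 1 and 3 together (0.0731); with library sizes alone the values were -0.02 for ITGB1 and -0.01 for ITGA3.

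ITGA7, another α chain of laminin receptors, known best from muscle, went the other way at a far lower level. It was at 6.15, 6.89 and 6.34 CPM in shTRIM21 and at 5.01, 4.41 and 4.497 CPM in shControl, with no overlap (log2 fold change 0.48, SE 0.128, edgeR adjusted p = 0.0162). Without shTRIM21 replicate 2 it was 0.42 and not called (edgeR adjusted p = 0.0841), and the call also ended without shControl replicate 3 (0.45, edgeR adjusted p = 0.0512) and when shControl replicates 1 and 3 were both left out (0.55, 0.0688). Exons of ITGA7 overlap METTL7B and BLOC1S1 on the opposite strand.

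The called genes of receptors for fibronectin, vitronectin and latent TGF-β, which recognise the RGD motif, were lower as well. ITGA5, whose product forms the fibronectin receptor α5β1, was at 51.6, 53.1 and 55.1 CPM in shTRIM21 and at 69.8, 62.1 and 68.0 CPM in shControl (log2 fold change -0.32, SE 0.0617, edgeR adjusted p = 0.00188). ITGAV, the αV chain shared by several RGD receptors, was at 41.7, 40.1 and 41.65 CPM in shTRIM21 and at 48.1, 57.1 and 46.3 CPM in shControl (log2 fold change -0.30, SE 0.0756, edgeR adjusted p = 0.0122). For both genes each shTRIM21 library lay below each shControl library, and for ITGAV shControl replicate 2 stood highest. Without shTRIM21 replicate 2 the ITGAV call was lost (log2 fold change -0.29, edgeR adjusted p = 0.0576), and without shControl replicates 1 and 3 that of ITGA5 (-0.23, edgeR adjusted p = 0.085).

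Of the β partners of αV, ITGB5 and ITGB8 had log2 fold changes larger in size than that of αV. That of ITGB1, another partner, was smaller in size (-0.23). ITGB5 (chr3:124761948-124901418), the β5 chain of a vitronectin receptor, was at 64.7, 62.7 and 66.1 CPM in shTRIM21 and at 93.2, 89.8 and 95.7 CPM in shControl, and fell by 30.6% (log2 fold change -0.53, SE 0.0548, 95% interval -0.64 to -0.41, edgeR adjusted p = 9.70e-06). ITGB8, whose product with αV binds latent TGF-β, was at 6.21, 6.46 and 6.999 CPM in shTRIM21 and at 11.6, 9.93 and 8.69 CPM in shControl, and fell by 34.95% (log2 fold change -0.62, SE 0.122, 95% interval -0.88 to -0.36, edgeR adjusted p = 0.00236). Neither gene overlapped between groups, and the shControl libraries of ITGB8 were the more widely spread. Both lost their call with library sizes alone (-0.31 for ITGB5 and -0.41 for ITGB8) and under none of the other 15 alternatives. The difference between the changes of αV and its partners was not tested. ITGB3, the β3 chain, had 9, 11 and 16 counts in shTRIM21 and 5, 5 and 3 in shControl, thus more in shTRIM21 but few. ITGB6, the β6 chain, had at most 7 counts in any library. Neither ITGB3 nor ITGB6 was tested.

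**Figure D2:**
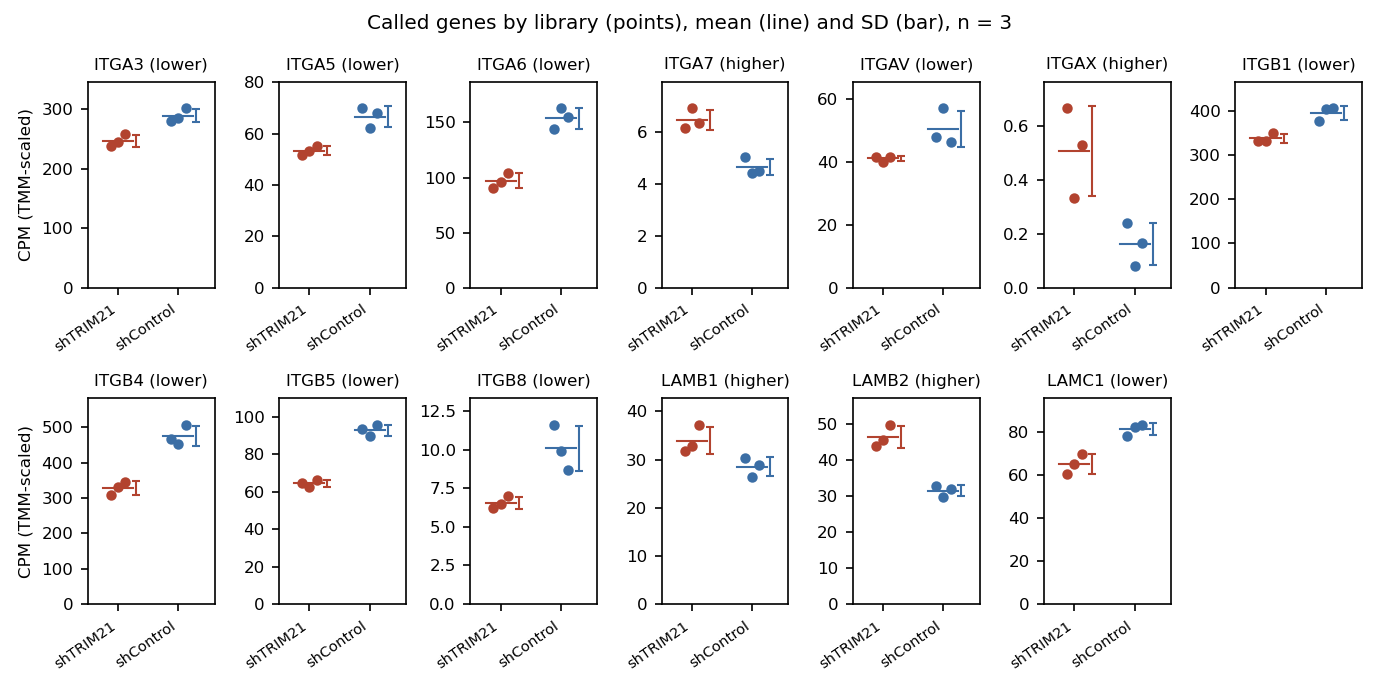
CPM on scaled library sizes (vertical axes start at 0) of 13 of the 14 called genes in each library, shTRIM21 at left and shControl at right in each panel; points are libraries, lines means and bars SDs of 3 libraries. In every panel the points of the 2 groups do not overlap; ITGB4 and ITGB1 have the highest levels per library and ITGAX the lowest.

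The α chains of collagen receptors gave no called change, while ITGB1, their common β chain, was lower. ITGA2, the α2 chain of the main epithelial collagen receptor α2β1, was at 35.1, 33.2 and 36.7 CPM in shTRIM21 and at 35.6, 36.1 and 33.4 CPM in shControl. Its groups overlapped fully, and the 95% interval of its log2 fold change ran from -0.14 to 0.14 (edgeR adjusted p = 0.995). ITGA1, the α1 chain, was at 1.71, 1.81 and 2.09 CPM in shTRIM21 and at 1.40, 1.14 and 0.441 CPM in shControl. These groups did not overlap, but the log2 fold change of 0.90 (SE 0.329) was not called (edgeR adjusted p = 0.0653). It was called without shControl replicate 1 (1.23, edgeR adjusted p = 0.0389) and in 4 other alternatives, and its exons overlap PELO, which lies inside ITGA1. ITGA10, the α10 chain, was at or below 0.925 CPM in every library, with overlapping groups, and ITGA11 had at most 6 counts and was not tested.

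Most integrin chains known from blood cells were close to the detection limit, ITGAE excepted. ITGB2, the β2 chain of the leukocyte integrins, had at most 4 counts in a library, ITGAL 4, ITGAM 17 and ITGAD 14, and none was tested. ITGAX, the αX chain known as CD11c, had 25, 13 and 20 counts in shTRIM21 and 9, 3 and 6 in shControl. Only the shTRIM21 libraries passed the filter on low counts, so ITGAX could be tested only because it was high there. Its log2 fold change was 1.62 (SE 0.496, edgeR adjusted p = 0.0307), a call lost in 7 of 16 alternatives, among them DESeq2 (adjusted p = 0.08), no filter on low counts (edgeR adjusted p = 0.069), and leaving out shTRIM21 replicate 1 (1.38, edgeR adjusted p = 0.132), shTRIM21 replicate 3 (0.0826), shControl replicate 2 (0.122) or shControl replicate 3 (0.0836). ITGAE, the αE chain that binds E-cadherin, was at 5.81 to 6.71 CPM in shTRIM21 and 4.73 to 6.01 CPM in shControl and not called (edgeR adjusted p = 0.433); its exons overlap HASPIN. ITGA2B, ITGA9 and ITGB7 had at most 1.33 CPM in every library, with overlapping groups and no call. ITGA4 had at most 22 counts and was not tested, and ITGA8 was listed at 0 throughout, as are CANX, FBL, RPL7A and TJP1, which most cells use, so that 0 is only what is listed.

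Both LAMB1 and LAMB2 of the 3 tested laminin β chains rose. LAMB2 (chr3:49121114-49133050), the β2 chain, was at 43.96, 45.6 and 49.8 CPM in shTRIM21 and at 32.7, 29.8 and 32.1 CPM in shControl. The groups stood well apart, with LAMB2 47.3% higher in shTRIM21 (log2 fold change 0.56, SE 0.0687, 95% interval 0.41 to 0.71, edgeR adjusted p = 4.66e-05). This call was kept in all 16 alternatives, where the log2 fold change ran from 0.51 to 0.78. LAMB1, the β1 chain, was at 31.8, 32.7 and 37.2 CPM in shTRIM21 and at 30.2, 26.4 and 28.8 CPM in shControl (log2 fold change 0.25, SE 0.0785, edgeR adjusted p = 0.0341). Its groups came close to each other, and the call was lost without shTRIM21 replicate 2 (edgeR adjusted p = 0.077), shTRIM21 replicate 3 (0.141, with a log2 fold change of 0.18), shControl replicate 2 (0.119) or shControl replicate 3 (0.0786), and without shControl replicates 1 and 3 together (0.0556). Exons of LAMB1 overlap those of DLD on the opposite strand, and no other annotated gene overlaps those of LAMB2. LAMB3, the β3 chain, was at 35.9, 40.2 and 46.5 CPM in shTRIM21 and at 38.2, 35.6 and 38.2 CPM in shControl, with overlap and no call (95% interval of the log2 fold change -0.05 to 0.31, edgeR adjusted p = 0.292). LAMB4 was listed at 0.

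LAMC1, the γ1 chain found in most laminins, was at 60.3, 64.9 and 69.5 CPM in shTRIM21 and at 78.1, 82.4 and 83.2 CPM in shControl. The groups did not overlap and LAMC1 fell by 20.1% (log2 fold change -0.32, SE 0.0621, edgeR adjusted p = 0.00195); with library sizes alone it was -0.11 and not called. LAMC3, the γ3 chain, was at 11.5, 12.1 and 12.4 CPM in shTRIM21 and at 11.4, 11.45 and 11.6 CPM in shControl, with a 95% interval of -0.13 to 0.25 (edgeR adjusted p = 0.659).

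No laminin α chain was called. LAMA5, the α5 chain of laminin-511 and laminin-521, was at 102, 109 and 120.5 CPM in shTRIM21 and at 122, 110 and 125 CPM in shControl, with overlapping groups (95% interval of the log2 fold change -0.25 to 0.03, edgeR adjusted p = 0.2685). LAMA3, the α3 chain, was at 4.72, 5.44 and 6.58 CPM in shTRIM21 and at 3.97, 4.54 and 4.77 CPM in shControl, where shControl replicate 3 exceeded shTRIM21 replicate 1 (log2 fold change 0.33, SE 0.153, edgeR adjusted p = 0.139). LAMA2, the α2 chain of muscle basement membranes, was between 3.84 and 4.31 CPM in shTRIM21 and between 3.37 and 4.03 CPM in shControl. LAMA4, the α4 chain of vessel laminins, had at most 0.687 CPM in every library, and LAMA1, the α1 chain, had at most 2 counts and was not tested. Exons of LAMA5 overlap ADRM1 and LAMA5-AS1 on the opposite strand.

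To compare chains with each other, CPM values were divided by the length in kb of the longest annotated transcript, a level per length. Among α integrins ITGA3 was the most abundant, at 45.045 ± 1.90 CPM per kb in shTRIM21 and 52.8 ± 1.99 in shControl (SD, n = 3 each). ITGA6 followed with 17.3 ± 1.22 CPM per kb in shTRIM21 and 27.4 ± 1.69 in shControl, then ITGA5 with 10.7 ± 0.350 in shTRIM21 and 13.3 ± 0.803 in shControl. ITGAV had 5.85 ± 0.130 CPM per kb in shTRIM21 and 7.19 ± 0.823 in shControl, and ITGA2 had 4.45 ± 0.225 in shTRIM21 and 4.45 ± 0.187 in shControl. ITGAE and ITGA7 came next in both groups and did not differ from each other beyond their spread in shTRIM21 (1.59 ± 0.128 CPM per kb for ITGAE, 1.57 ± 0.0930 for ITGA7), while the other α chains averaged at most 0.359 CPM per kb in shTRIM21 and 0.287 in shControl. The order of ITGA2, ITGAE and ITGA7 depends on the length used. With the median transcript length it was ITGA7, ITGA2, ITGAE in shTRIM21 and ITGA2, ITGAE, ITGA7 in shControl. Among β integrins the order was ITGB1 (89.3 ± 2.61 CPM per kb in shTRIM21, 105 ± 4.28 in shControl), ITGB4 (55.4 ± 3.24 in shTRIM21, 80.2 ± 4.76 in shControl), ITGB5 (14.7 ± 0.387 in shTRIM21, 21.3 ± 0.682 in shControl) and ITGB8 (0.749 ± 0.0462 in shTRIM21, 1.151 ± 0.167 in shControl).

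Per length of the longest transcript, no laminin chain reached the level of ITGB1, ITGB4, ITGA3, ITGA6 or ITGB5, while LAMA5, LAMC1 and LAMB3 stood above ITGAV and ITGA2. LAMA5 was the only abundant α chain, at 9.66 ± 0.825 CPM per kb in shTRIM21 and 10.4 ± 0.679 in shControl, whereas LAMA3 was at 0.523 ± 0.0880 in shTRIM21 and 0.415 ± 0.0386 in shControl. The β chains were LAMB3 (9.50 ± 1.23 CPM per kb in shTRIM21, 8.68 ± 0.350 in shControl), LAMB2 (8.19 ± 0.530 in shTRIM21, 5.55 ± 0.271 in shControl) and LAMB1 (5.88 ± 0.498 in shTRIM21, 4.94 ± 0.339 in shControl). LAMB3 and LAMB2 thus differed by less than the SD of LAMB3 plus that of LAMB2 in shTRIM21, but by more than both in shControl. The γ chains were LAMC1 (8.23 ± 0.580 CPM per kb in shTRIM21, 10.3 ± 0.345 in shControl) and LAMC3 (1.96 ± 0.0702 in shTRIM21, 1.87 ± 0.0210 in shControl). The order of the β laminins depends on the length used: with the median transcript length it was LAMB2, LAMB1, LAMB3 in both groups, and LAMA2 stood above LAMA3. The order of laminins against integrins depends on it too. With the median length LAMA5 stood above ITGA6 and ITGB5, and LAMB3 below ITGAV, in both groups.

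**Figure D3:**
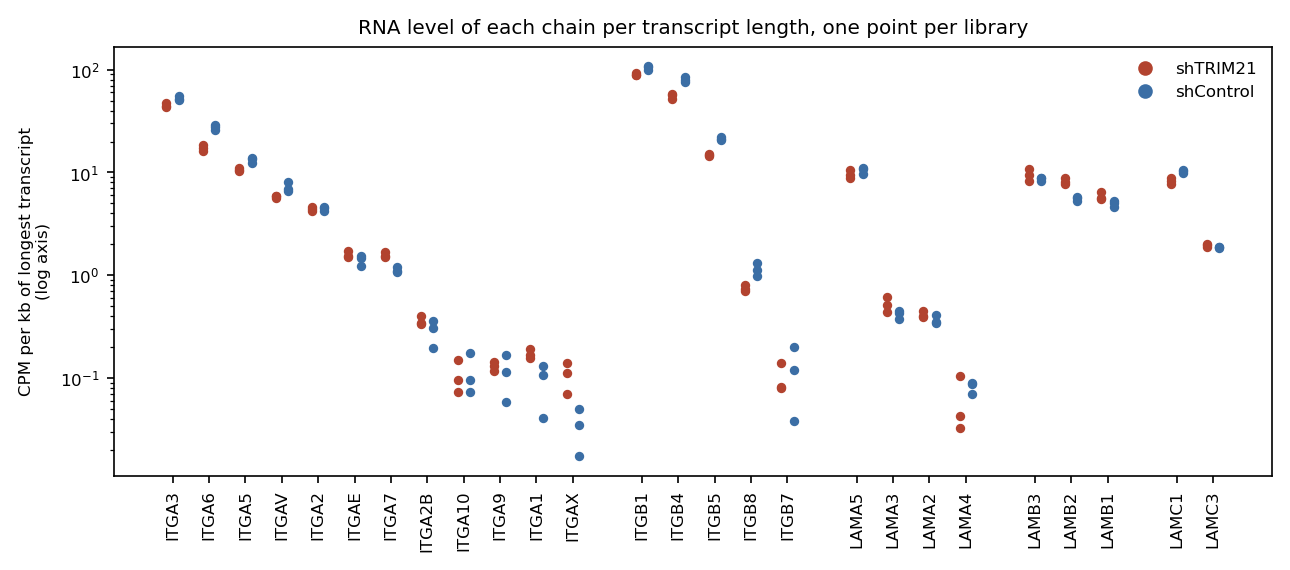
RNA level per length (CPM per kb of the longest annotated transcript, log axis) of 26 of the 27 tested chains in each library, shTRIM21 left of shControl for each gene, ordered within each class by the shControl mean. ITGB1, ITGB4 and ITGA3 hold the highest levels, LAMA5 (9.66 in shTRIM21) stands far above the other α laminins, and the groups of LAMB2 lie apart.

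Receptor pairs were then described by the less abundant of their chains per length, which limits how much of the pair could be made from these RNAs. This says nothing of the assembled protein. Of 24 known pairs, 13 had both chains tested, and the chain in shorter supply was the same in both groups for all 13. It was the α chain in each pair except αVβ8 and αEβ7. This takes each pair alone, so a chain shared by several pairs is counted in full for each. Set against the sum of its α partners, ITGB1 was at a ratio of 1.05 ± 0.0199 in shTRIM21 and 0.980 ± 0.0180 in shControl (SD, n = 3 each). ITGB1 was thus about level with them together. In 7 pairs, α3β1, α5β1, α6β1, αVβ1, αVβ5, αVβ8 and α6β4, both chains were called lower, and these pairs share ITGB1, ITGA6 and ITGAV among them. That count fell to 1, α6β4, without shTRIM21 replicate 2, where the calls of ITGB1 and ITGAV were lost, to 5 without shControl replicates 1 and 3, and to 0 with library sizes alone; it was 7 under the other 13 alternatives. The limiting level of α6β4 and α6β1 was that of ITGA6, with 16.1, 17.1 and 18.6 CPM per kb in shTRIM21 and 25.6, 28.98 and 27.6 in shControl, a ratio of 0.631. For α3β1 the ratio was 0.854, for α5β1 0.799, for αVβ1 and αVβ5 0.814 and for αVβ8 0.651. The collagen receptor α2β1 stayed at a ratio of 0.9996, set by ITGA2, its scarcer chain, while ITGB1 fell. For α7β1 the ratio was 1.39, set by ITGA7.

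Laminin trimers were described in the same way. No trimer could have all its chains called in the same direction, because each holds an α chain and no laminin α chain was called. Of 15 known trimers, 13 had every chain tested. In laminin-511 the limiting chain was LAMB1 in both groups, with 5.52, 5.68 and 6.45 CPM per kb in shTRIM21 and 5.25, 4.58 and 5.00 in shControl, a ratio of 1.19. In laminin-521 the limiting chain in shControl was LAMB2, at 5.76, 5.25 and 5.65 CPM per kb, whereas in shTRIM21 LAMB2 and LAMC1 were about level and the limiting value was 7.65, 8.03 and 8.77, a ratio of 1.47. The α3 trimers were limited by LAMA3 and the α2 and α4 trimers by LAMA2 and LAMA4, all with overlapping groups. Laminin-523 was limited by LAMC3, with overlap. All these levels move with the transcript length used: with the median length laminin-521 was limited by LAMB2 in both groups and laminin-213 by LAMC3. LAMA3 is known to have a short and a long form.

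**Figure D4:**
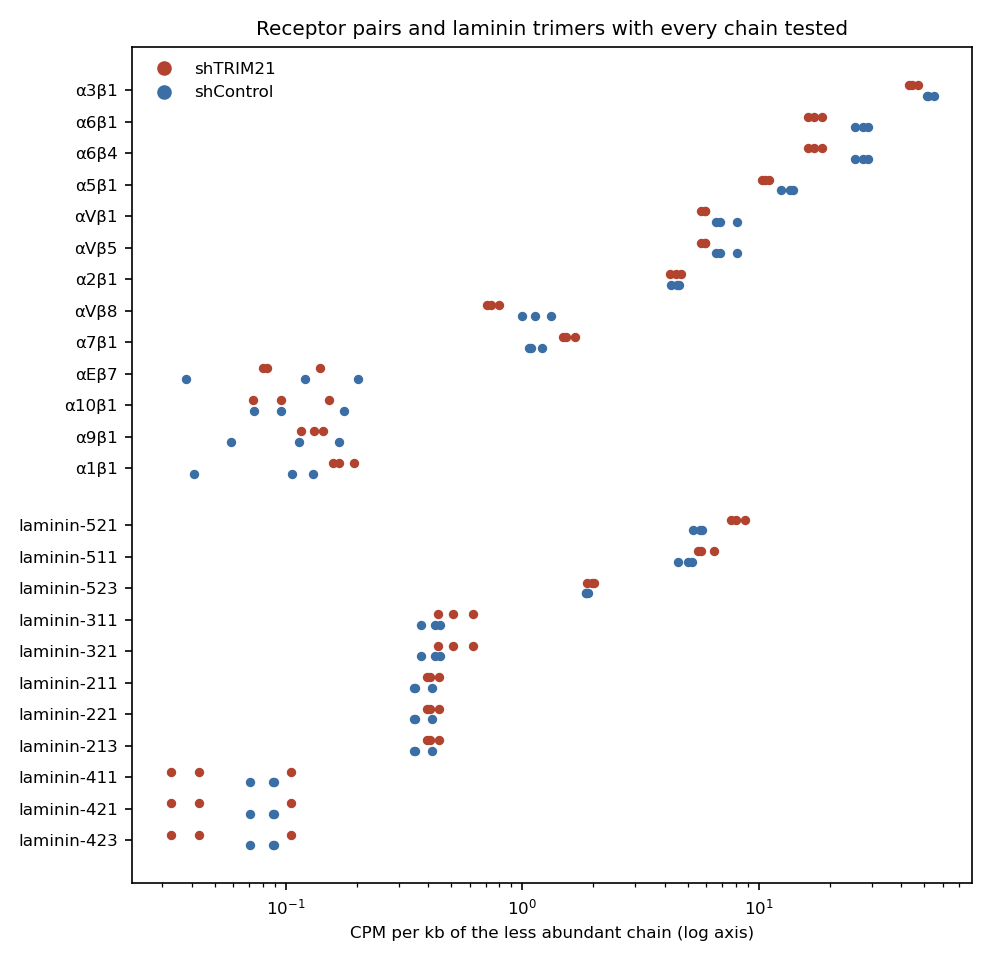
Level of the less abundant chain (CPM per kb, log axis) for the 13 integrin pairs and 11 of the 13 laminin trimers with every chain tested; points are libraries, shTRIM21 above shControl in each row. Points of α6β1 and α6β4 coincide because both are set by ITGA6, and in shTRIM21 the points of laminin-521 lie to the right of shControl while those of α3β1, α6β4 and α5β1 lie to the left.

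Ratios of chains within a library do not depend on how libraries are scaled, and were computed after the changes had been seen. LAMB2 over LAMC1 was 1.01, 0.976 and 0.996 in shTRIM21 and 0.582, 0.503 and 0.536 in shControl. LAMB2 over LAMB1 was 1.39 ± 0.0287 in shTRIM21 and 1.13 ± 0.0244 in shControl (SD, n = 3 each), and the share of LAMB2 among β laminin RNA per length was 34.8% ± 1.06 in shTRIM21 and 28.97% ± 0.0368 in shControl. That share depends on the length used, and with the median transcript length it was 57.7% in shTRIM21 and 51.99% in shControl, again without overlap. Among receptors, ITGA6 over ITGA3 was 0.372, 0.384 and 0.394 in shTRIM21 and 0.500, 0.557 and 0.501 in shControl, and ITGB4 over ITGB1 was 0.621 ± 0.0264 in shTRIM21 and 0.768 ± 0.0451 in shControl. ITGA6 made up 19.7% ± 0.601 of α integrin RNA per length in shTRIM21 and 25.2% ± 1.19 in shControl, and ITGA3 51.5% ± 0.0824 in shTRIM21 and 48.6% ± 1.08 in shControl. ITGB4 over ITGA6, the chains of one receptor, was 3.22, 3.275 and 3.14 in shTRIM21 and 3.07, 2.64 and 3.11 in shControl, nearly touching. For each of these ratios and shares the groups did not overlap, which with 3 against 3 gives a two-sided p of 0.1 by exact permutation, the smallest it allows. Class shares of other called genes went both ways. Groups overlapped for ITGA5 (12.2% in shTRIM21, 12.3% in shControl), ITGAV (6.69% in shTRIM21, 6.62% in shControl) and ITGB8 (0.467% in shTRIM21, 0.557% in shControl). They did not overlap for ITGA7, ITGB1 and ITGB5.

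**Figure D5:**
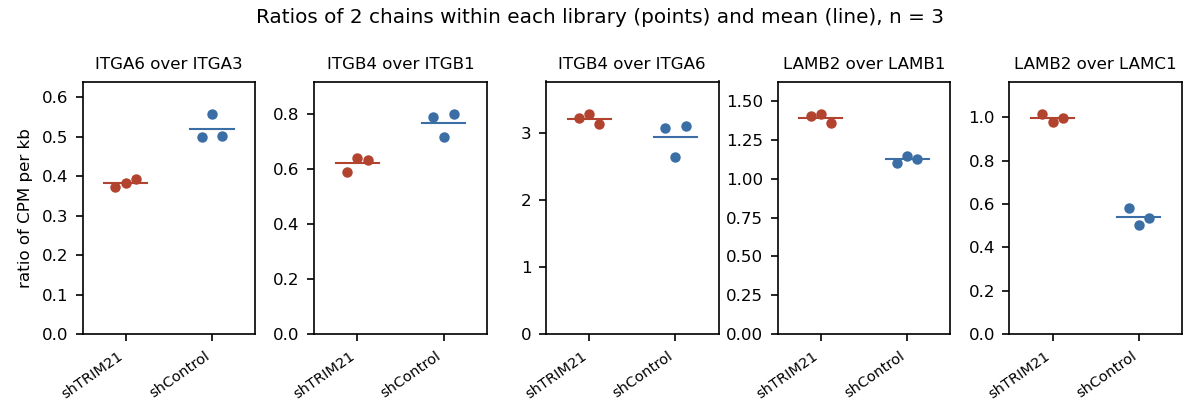
Ratio of CPM per kb of 2 chains in each library (points) and group mean (lines), shTRIM21 left of shControl, axes starting at 0. LAMB2 over LAMC1 is near 1 in the 3 shTRIM21 libraries and between 0.503 and 0.582 in shControl, and the groups of ITGB4 over ITGA6 lie close together.

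Genes around these receptors were counted from 4 lists. Of 25 tested integrin activators and adaptors, 10 were lower and 4 higher, with a median log2 fold change of -0.08, where 11% of all tested genes were lower and 9.77% higher. The lower count was 7 with upper-quartile factors, 6 without shControl replicates 1 and 3, and 0 with library sizes alone. VCL, encoding vinculin, which ties integrin adhesions to actin, was 1.335-fold lower (edgeR adjusted p = 0.000179, log2 fold change -0.42 with an SE of 0.059), PARVA, encoding the parvin of the integrin-linked kinase complex, 1.33-fold lower, and TNS4, encoding a tensin, 1.52-fold lower. TNS3 and TNS1, other tensins, were 1.49-fold and 1.66-fold higher and KANK1, which binds talin, 1.39-fold higher. The calls of VCL, PARVA and TNS4 were lost with library sizes alone (edgeR adjusted p from 0.0849 to 0.425), where they stayed below 0.

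Membrane partners and anchors of laminin-binding integrins were lower for 4 and higher for 2 of 14, with a median of -0.08, beside 20.8% called over all tested genes. The lower count was 2 without shControl replicates 1 and 3 and 0 with library sizes alone, and the higher count 1 without shTRIM21 replicate 2. PLEC, encoding plectin, the link of ITGB4 to keratins, was at 736, 795 and 821 CPM in shTRIM21 and at 998, 944 and 1009 CPM in shControl (log2 fold change -0.33, edgeR adjusted p = 0.00145). DAG1, encoding the laminin receptor dystroglycan, was 1.25-fold lower and SLC3A2, encoding the integrin-binding heavy chain CD98, 1.32-fold lower, whereas BCAM, a receptor of the laminin α5 chain, was 1.255-fold higher and the tetraspanin gene CD82 1.39-fold higher. The calls of PLEC, DAG1 and SLC3A2 were lost with library sizes alone (edgeR adjusted p from 0.478 to 0.71), that of BCAM without shTRIM21 replicate 2 (edgeR adjusted p = 0.061) and that of DAG1 without shControl replicates 1 and 3 (0.0505).

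Of 13 tested basement membrane genes other than laminins, 1 was lower, 0 higher and 12 not called in edgeR, with a median of -0.0009, beside 20.8% called over all tested genes. At an unadjusted p under 0.05, 0 were higher, and DESeq2 and limma-voom also called 0 higher. Whether the list differs from other genes was not tested. The gene called lower was NTN1, encoding netrin-1, a laminin-related guidance protein, at a log2 fold change of -0.28 (edgeR adjusted p = 0.0341). That call was lost in 7 alternatives, among them leaving out shTRIM21 replicate 1 (0.123), shTRIM21 replicate 2 (0.0573), shControl replicate 1 (0.0754) or shControl replicate 3 (0.0913). Of 19 tested ligands of integrins other than laminins, 6 were higher and 3 lower, beside 9.77% higher and 11% lower over all tested genes. The higher count was 4 without shControl replicates 1 and 3. The matricellular genes THBS1, CCN1 and CCN2 were 2.40-fold, 2.13-fold and 3.72-fold lower, each without overlap between groups. CDH1, encoding E-cadherin, the ligand of αEβ7, was 1.49-fold higher, TGFB1 1.23-fold higher and SPP1, encoding osteopontin, a ligand of αV integrins, 2.39-fold higher at 1.89 to 2.17 CPM in shTRIM21 and 0.662 to 1.01 CPM in shControl. Its call was lost without shControl replicates 1 and 3 (edgeR adjusted p = 0.0731).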

How the data were processed

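RNA of RKO cells was measured by sequencing after removal of ribosomal RNA, per the labels' protocols, in 3 shTRIM21 and 3 shControl libraries, grouped by their titles. The titles name biological replicates, and the source field calls the material mouse tissue while organism and cell line are human; human gene symbols fill the tables. The authors deposited raw counts per gene symbol, 1 table per library. Per the submitters' processing notes TopHat2, edgeR 3.38.1, limma 3.52.2 and hg38 were used; the counting step is not given in the sources used here, nor is its use of strand. Totals ran from 33499827 to 44466137 counts per library.

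Genes were kept by edgeR's filter (minimum count 10, minimum total 15), scaled by TMM and tested with edgeR's quasi-likelihood F test (edgeR 4.0.16, limma 3.58.1, R 4.3.3), with Benjamini-Hochberg adjustment over all 15131 genes and calls at 0.05. Each SE was taken as the size of the log2 fold change over root F. CPM per kb used the longest GENCODE 29 transcript. The code was tested on simulated data. Of the alternatives, 15 were planned and 1, leaving out shControl replicates 1 and 3, was added after seeing their ribosomal RNA shares; pair counts, shares by median transcript length and counts without ITGAX were also added after the data were seen; DESeq2 was version 1.42.0. The members and lists were chosen with earlier results of these data known. All 38 genes are counted, and the values of 1 of them, with those of complexes and ratios that need it, are not reported here. Others have values in every library for called genes and chains of fully tested complexes at appreciable level; from each list at most 3 called genes per direction, by smallest p, are named. ITGB4 and 11 other genes had no promoter entry in the RefSeq table used.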

Additional observations from a re-analysis of the deposited data

How the results depend on the processing

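Over the 16 alternatives, ITGA6 and LAMB2 kept their calls in all. With library sizes alone 1 integrin or laminin gene was called lower, their median log2 fold change was 0.1121, 138 genes of the whole table were lower, and 92.99% of all calls were higher, against 47.01% in the reported fit and 62.06% with upper-quartile factors. Leaving out 1 library at a time gave 1 to 5 integrin and laminin genes higher and 7 to 10 lower, 841 to 1211 genes higher and 1003 to 1398 lower over the whole table, and a median of -0.1095 to 0.0283. Without shControl replicates 1 and 3, an alternative chosen after seeing the data, 854 genes were higher and 1104 lower, 1 integrin or laminin gene was higher and the median was -0.0068. Signs turned only for genes not called. With library sizes alone ITGA10 was at 0.072, ITGA2 at 0.2082, ITGB7 at 0.0117 and LAMA5 at 0.1121, and with upper-quartile factors ITGA2 was at 0.0406. With 1 library left out, ITGA10 ran from -0.4516 to 0.3266, ITGA2 from -0.0414 to 0.0283, ITGA9 from -0.1095 to 0.585 and ITGB7 from -0.6713 to 0.331, and ITGB7 was at 1.3736 without shControl replicates 1 and 3. The cause was not tested.

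Same-numbered libraries did not deviate together (correlations -0.013, 0.006 and -0.08). With the replicate block 10 integrin and laminin genes were lower and 4 higher, beside 1385 higher and 1520 lower over the whole table, with a median of -0.0866. The 11 untested genes had too few counts to be compared.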
